A study of Homo sapiens with 3 samples.

Results

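Peaks of the transcription factor RBPJ and of the chromatin protein L3MBTL3 were described around 10 genes that carry the Notch signal or feed back on it. They are the receptor genes NOTCH1, NOTCH2, NOTCH3 and NOTCH4, the ligand genes JAG1, JAG2, DLL1 and DLL4, and the modulators NRARP and DTX1. The genes were chosen by name, out of 19756 protein-coding genes on the autosomes and X. A peak was assigned to a gene when its summit lay within 50 kb of a protein-coding transcription start site (TSS) of that gene, so 1 peak may be assigned to several genes. The data are chromatin immunoprecipitation followed by sequencing (ChIP-seq) from MDA-MB-231, an established line of human breast cancer cells without hormone receptors. The cells were grown with serum and antibiotics, and the labels name no treatment or genetic change. There was 1 library with an antibody against RBPJ (CBF1, labelled RBPSUH), 1 with an antibody against L3MBTL3, and 1 of input DNA that was not analysed here. The series asks where RBPJ and L3MBTL3 lie together on chromatin. Because each antibody has a single library, values stand without an SD and libraries were not tested against each other. How precise a given fold is cannot be said either, as the lists carry no reads per peak. Peak lists hold no expression, so the levels of these genes and the identity of the line were not checked.

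Notch receptors are bound by ligands of the Jagged and Delta-like families on a neighbouring cell, after which the receptor is cleaved and its intracellular domain enters the nucleus. There it joins RBPJ on DNA and turns on target genes, while without it RBPJ can recruit corepressors. NRARP is a small ankyrin-repeat protein that Notch induces and that acts back on the receptor's intracellular domain, and DTX1 is a Deltex-type ubiquitin ligase that modulates Notch receptors. L3MBTL3 is a reader of methylated lysines, and the title of the series links it to KDM1A, a histone demethylase.

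RBPJ peaks lay within 50 kb of 5 of the 10 genes (NOTCH1, NOTCH2, NOTCH4, JAG1 and NRARP), against 21.8% of all protein-coding genes. L3MBTL3 peaks lay within 50 kb of 2 of the 10, NOTCH1 and NRARP, against 2.89% of all genes. The same 2 genes had a shared peak, meaning an RBPJ and an L3MBTL3 peak that overlap by at least 1 bp, against 1.01% of all genes. In all, 13 of the 2926 RBPJ peaks and 4 of the 444 L3MBTL3 peaks were assigned to the 10 genes. Within 1 kb of a TSS the counts were 3 of 10 for RBPJ (NOTCH1, NOTCH2 and JAG1; 8.90% of all genes), 2 of 10 for L3MBTL3 (NOTCH1 and NRARP; 1.37%) and 1 of 10 for shared peaks (NOTCH1; 0.516%). These counts are a description of a chosen set and were not tested. NOTCH3, JAG2, DLL1, DLL4 and DTX1 had no peak of either protein within 50 kb.

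**Figure D1:**
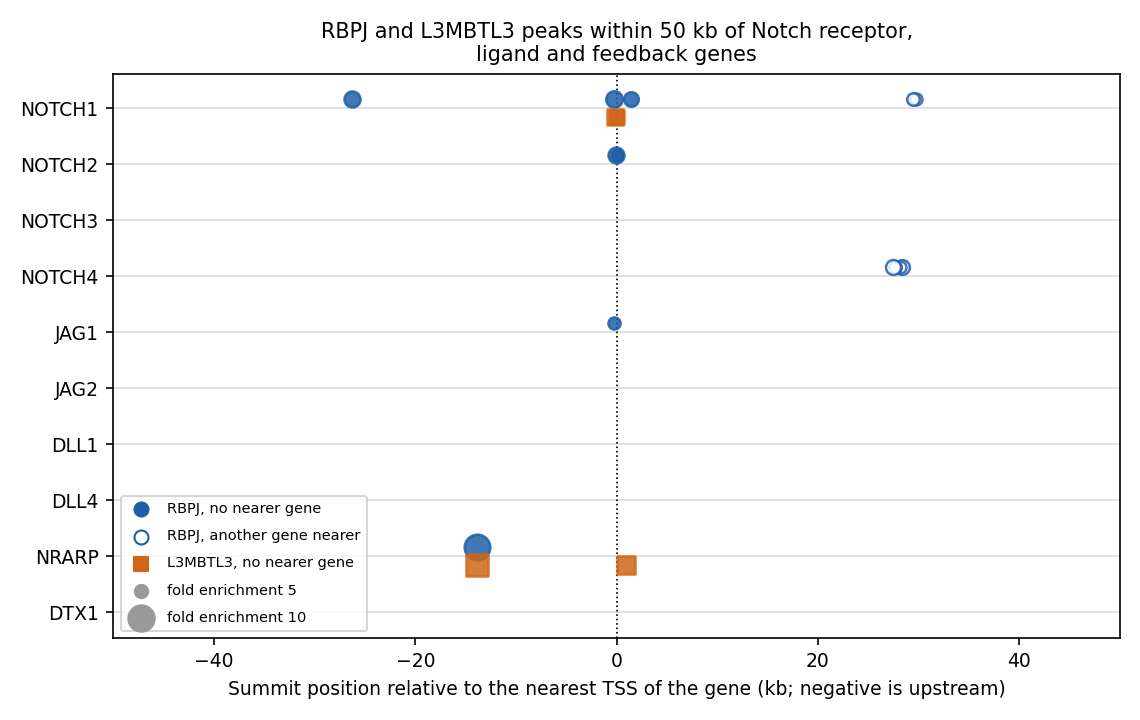
Summit positions of RBPJ (circles) and L3MBTL3 (squares) peaks relative to the nearest TSS of each of the 10 genes, in kb, with the symbol area growing with the square of the deposited fold enrichment; open circles have the TSS of another protein-coding gene nearer by. NOTCH1 and NRARP are the 2 rows with squares, and all 4 NOTCH4 circles are open and lie 27.5 to 28.4 kb downstream of its TSS.

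DNA under or beside peaks of NRARP, NOTCH1, NOTCH4 and JAG1 is shown on the forward strand of GRCh37 (the sequence of hg19), to set peaks that hold the RBPJ recognition core beside peaks that do not. Capitals mark the core TGGGAA, which reads TTCCCA when it lies on the reverse strand. The high-affinity site is CGTGGGAA or TGTGGGAA and includes the core.
Shared region upstream of NRARP, in an EXD3 intron, chr9:140210488-140210697: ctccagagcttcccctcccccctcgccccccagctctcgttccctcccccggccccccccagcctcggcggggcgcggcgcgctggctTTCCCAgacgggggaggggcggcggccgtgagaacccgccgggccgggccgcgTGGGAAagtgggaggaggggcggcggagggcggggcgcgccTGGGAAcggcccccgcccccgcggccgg
Site in the L3MBTL3 peak in the NRARP 3' UTR, chr9:140195803-140195832: cgggtgggggccgTGGGAAgctgctccggc
Shared region at the NOTCH1 promoter, chr9:139440626-139440731: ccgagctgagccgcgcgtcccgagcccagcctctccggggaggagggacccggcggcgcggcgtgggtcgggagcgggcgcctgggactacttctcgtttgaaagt
RBPJ peak in a NOTCH1 intron, chr9:139439026-139439124: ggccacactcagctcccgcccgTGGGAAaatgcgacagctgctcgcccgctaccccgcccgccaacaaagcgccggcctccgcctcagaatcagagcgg
RBPJ peak upstream of NOTCH1, chr9:139466767-139466832: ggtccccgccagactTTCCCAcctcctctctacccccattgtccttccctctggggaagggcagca
Stretch near the end of NOTCH4 that spans the third RBPJ peak from the GPSM3 side and the start of the fourth, with its first core outside the peaks, chr6:32164064-32164275: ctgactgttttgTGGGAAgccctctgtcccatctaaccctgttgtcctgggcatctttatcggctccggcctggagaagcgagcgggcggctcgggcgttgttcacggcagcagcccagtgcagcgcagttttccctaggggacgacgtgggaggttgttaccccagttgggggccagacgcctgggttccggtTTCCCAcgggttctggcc
RBPJ peak upstream of the JAG1 TSS, chr20:10654842-10654910: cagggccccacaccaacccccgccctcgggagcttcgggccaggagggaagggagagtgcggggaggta

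NOTCH1, the receptor gene with the most peaks, was assigned 5 RBPJ and 2 L3MBTL3 peaks (chromosome 9, minus strand, canonical TSS at 139440500). The RBPJ peak with the highest fold covered the TSS itself, at 139440438 to 139440790, with its summit 233 bp upstream, a fold enrichment of 6.27 and a -log10 q of 5.34. It contained the whole L3MBTL3 peak at 139440626 to 139440731, whose fold was 5.81 and -log10 q 3.61, and the summits lay 89 bp apart. Neither summit was in an annotated protein-coding transcript: the RBPJ summit was 22 bp from the start of the microRNA gene MIR4674 and the L3MBTL3 summit 20 bp from the start of NALT1, a long non-coding RNA gene. The printed overlap held no TGGGAA core. The other L3MBTL3 peak, at 139440332 to 139440402, had its summit in the NOTCH1 5' UTR, 78 bp downstream of a TSS, with a fold of 5.09 and a -log10 q of 2.33. It touched no RBPJ peak, although the nearest RBPJ summit was 362 bp away.

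The other 4 RBPJ peaks assigned to NOTCH1, of which 1 lay inside the gene, overlapped no L3MBTL3 peak. The peak in a NOTCH1 intron, 1392 bp downstream of a TSS, had a fold of 5.58 and a -log10 q of 4.40, and a CGTGGGAA at 139439046 to 139439053 was centred 7 bp from its summit. A peak with its summit outside protein-coding transcripts, 26.3 kb upstream of the TSS, had a fold of 6.10. Its -log10 q, 5.57, was the highest of the 5 RBPJ peaks, and it had a core but no high-affinity site. The remaining pair, with folds of 4.53 and 4.74, lay in an intron of SEC16A at 75 and 341 bp from its TSS. The start of C9orf163, a long non-coding RNA gene, was 380 and 77 bp from these summits. SEC16A encodes a protein of endoplasmic reticulum exit sites. These summits were within 50 kb of NOTCH1 through an internal NOTCH1 TSS at 139407300, and were 62.9 and 62.6 kb from the canonical TSS. The SEC16A pair therefore belongs to NOTCH1 by the distance rule alone.

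NOTCH2 had 2 RBPJ peaks at its promoter on chromosome 1 and no L3MBTL3 peak. One summit was in the 5' UTR, 36 bp downstream of a TSS (120612092 to 120612225), with a fold of 4.39 and a -log10 q of 3.92. The other was 68 bp upstream of a TSS and inside an intron of a longer NOTCH2 transcript (120612295 to 120612388), with a fold of 6.06 and a -log10 q of 9.31. This promoter lies in sequence that exists more than once in the genome. Of 5 stretches of 50 bases around each summit, 3 had an exact second copy near megabase 145 of chromosome 1 and 2 were unique. The copies of the 5' UTR peak fall in annotated NOTCH2NL genes, which are partial copies of NOTCH2. Reads of 50 cycles that match both places cannot be told apart, and how the submitters' pipeline placed such reads is not given in the sources used here. For the other 15 of the 17 peaks all 5 stretches were unique. Neither NOTCH2 window of 100 bp either side of the summit held a core, and the nearest L3MBTL3 summit was 3499 kb away.

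NOTCH4 was assigned 4 RBPJ peaks, but all 4 were nearer to other genes. They lay at 32163431 to 32164438 on chromosome 6, over coding exons (3 summits) and an intron (1 summit) in the last part of NOTCH4, 27.5 to 28.4 kb downstream of its TSS. The TSS of GPSM3, which encodes a modulator of G-protein signalling, was 176 to 1032 bp from the summits, and those of PBX2, AGER, RNF5 and AGPAT1 were also nearer than that of NOTCH4. From the GPSM3 side outward the folds were 5.62, 4.56, 4.74 and 5.68, and the -log10 q values 5.41, 3.69, 3.69 and 6.47. The region held TGTGGGAA at 32164074 to 32164081 and CGTGGGAA on the minus strand at 32164258 to 32164265, whose starts are 184 bp apart. The TGTGGGAA lay 78 bp from the summit of the peak with a fold of 4.74, outside its bounds, and the CGTGGGAA 70 bp from that of the peak with 5.68, inside its bounds. No L3MBTL3 summit was within 1453 kb of these peaks. NOTCH3, the fourth receptor gene, had its nearest RBPJ summit 218 kb away, at the promoter of AKAP8L, and its nearest L3MBTL3 summit 1075 kb away.

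**Figure D2:**
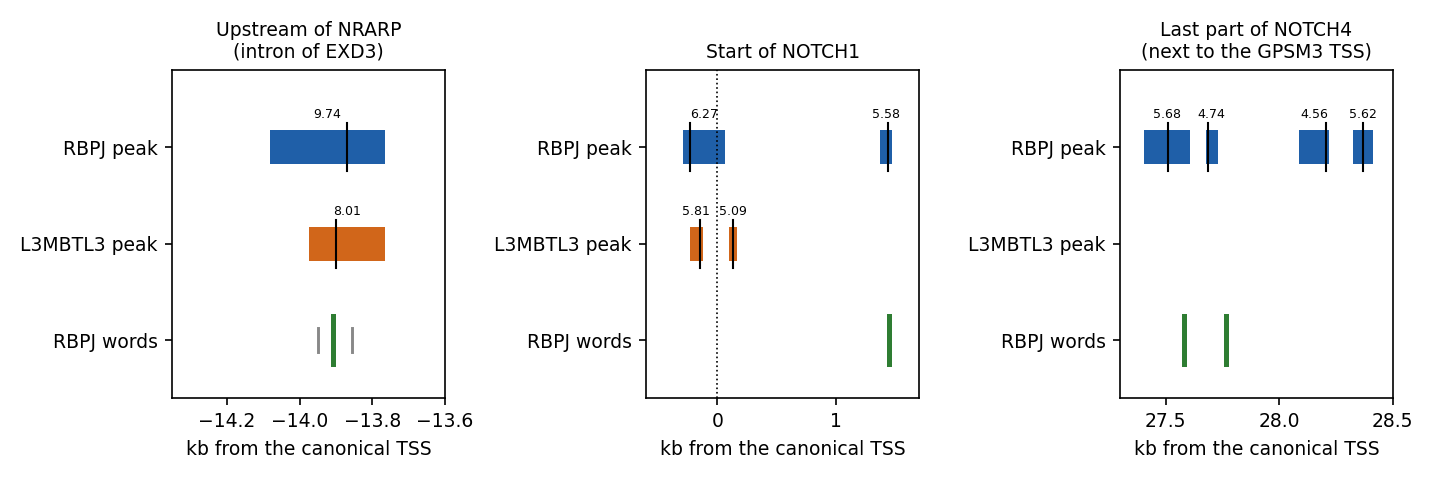
Peaks (bars, with a black line at the summit and the deposited fold above) and RBPJ words (tall green lines, high-affinity sites; short grey lines, the core alone) in 3 regions, by distance in kb from the canonical TSS of NRARP, NOTCH1 or NOTCH4. The high-affinity site upstream of NRARP lies under both peaks, whereas at NOTCH1 the site lies under the intron peak at 1.44 kb and not under the shared peak.

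Among the ligand genes, which encode the membrane proteins that bind the receptors, JAG1 alone had a peak within 50 kb. Its RBPJ peak lay on chromosome 20, at 10654842 to 10654910, with the summit outside protein-coding transcripts and 218 bp upstream of the JAG1 TSS. It was weak and narrow, with a fold of 4.62, a -log10 q of 2.44 and a width of 69 bp, and 30.4% of RBPJ peaks had a lower fold. The window of 100 bp either side of its summit held no core and no looser RBPJ site. The nearest RBPJ summit to JAG2 was 77.1 kb away and nearer to GPR132, with a fold of 6.63. For DLL1 it was 448 kb away, at the promoter of ERMARD, and for DLL4 1001 kb away. The nearest L3MBTL3 summits were 132 kb (JAG2), 774 kb (DLL1), 9602 kb (DLL4) and 15184 kb (JAG1) from these TSS.

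NRARP had the peaks with the highest fold and -log10 q of the 10 genes in both lists, and these lay far from its promoter. The RBPJ peak at 140210487 to 140210805 on chromosome 9 had its summit 13.9 kb upstream of the NRARP TSS, with a fold of 9.74 and a -log10 q of 15.6. It was in an intron of EXD3, but no protein-coding TSS was nearer than that of NRARP. Ranked by fold it was number 24 of 2926 RBPJ peaks. The L3MBTL3 peak at 140210488 to 140210697 lay wholly within it, with a fold of 8.01, a -log10 q of 9.14 and rank 18 of 444, and the summits were 28 bp apart. The region held CGTGGGAA at 140210627 to 140210634, centred 9 bp from the L3MBTL3 and 37 bp from the RBPJ summit, as well as a core on each side of it, at 140210576 to 140210581 on the minus strand and at 140210670 to 140210675.

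NRARP also had an L3MBTL3 peak without RBPJ. It lay at 140195683 to 140195934, with its summit in the 3' UTR of this short gene, 983 bp downstream of the TSS. Its fold was 6.98, its -log10 q 6.10 and its rank 61 of 444. The peak held CGTGGGAA at 140195814 to 140195821, 78 bp from the summit, and yet the nearest RBPJ summit was the one upstream, 14.9 kb away. The absence of an RBPJ peak there says that none passed the submitters' cutoff, not that RBPJ was absent. DTX1 had no peak: its nearest RBPJ summit was 128 kb away, at the DDX54 promoter, and its nearest L3MBTL3 summit 6931 kb away.

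Within the RBPJ list the 13 peaks had folds of 4.39 to 9.74 with a median of 5.58, beside a median of 5.08 for all 2926 peaks, and 7 of the 13 were at or above that list median. A -log10 q of at least 5 was reached by 6 of the 13 (46.2%), against 21.9% of the list. The 6 include NOTCH4-assigned peaks nearest to GPSM3 (5.41 and 6.47) and the NOTCH2 peak of 9.31, which lies in sequence with exact copies. The 4 L3MBTL3 peaks had folds of 5.09 to 8.01 with a median of 6.40, beside 5.57 for all 444. A -log10 q of at least 5 was reached by 2 of the 4, against 23.2% of the list. Both NRARP peaks in the L3MBTL3 list had a higher fold than both NOTCH1 peaks. By position, 4 of the 13 RBPJ peaks were within 1 kb of a TSS of the gene they were assigned to, 5 were within 1 kb of another gene's TSS and 4 were at no promoter. Peaks at a promoter of any gene were thus 9 of the 13 (69.2%), near the 64.1% of the RBPJ list. Of the L3MBTL3 peaks 3 of the 4 (75%) were within 1 kb of a TSS of NOTCH1 or NRARP, against 82.7% of the list at any promoter. The NRARP one was the peak in its 3' UTR, with the summit 983 bp downstream of the TSS. Shared peaks made up 2 of the 13 (15.4%, against 4.37% of the RBPJ list) and 2 of the 4 (50%, against 28.6% of the L3MBTL3 list).

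**Figure D3:**
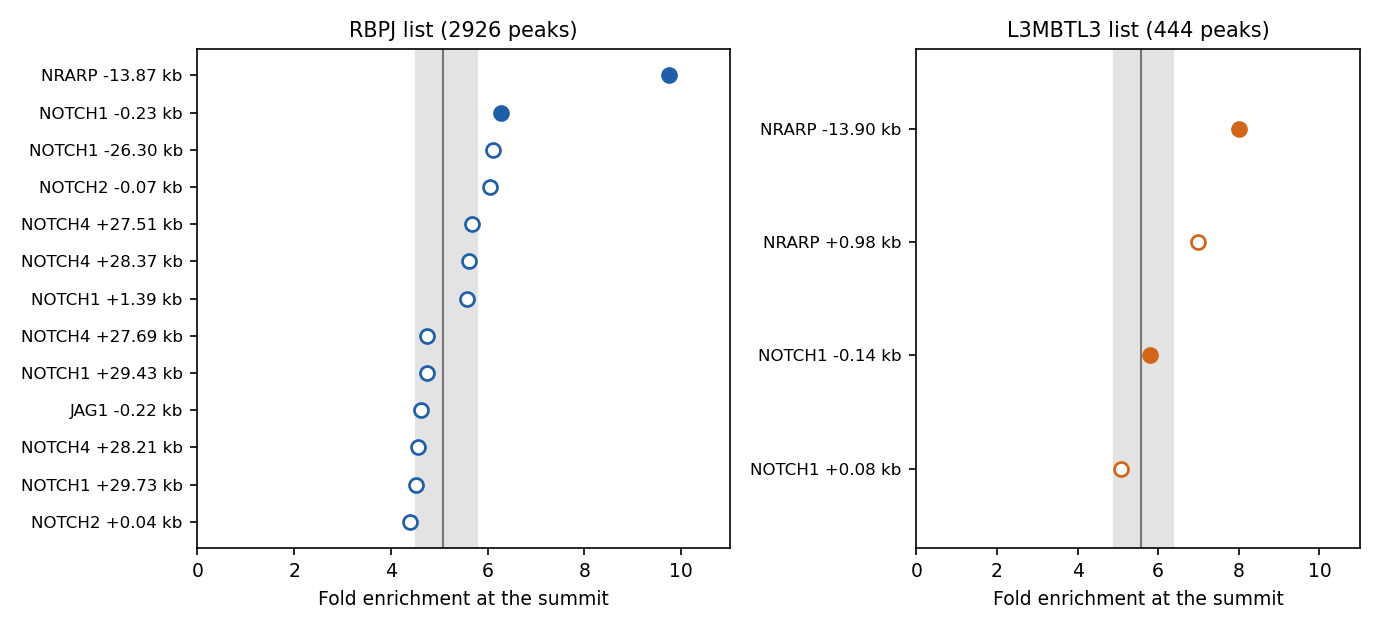
Deposited fold enrichment of each of the 13 RBPJ (left) and 4 L3MBTL3 peaks (right), ordered by fold and named by gene and summit position in kb from the nearest TSS of that gene; filled points are shared peaks, the grey band spans the quartiles of the whole list (4.53 to 5.78 and 4.91 to 6.37) and the line is its median. The NRARP upstream peak stands highest in both panels, and the NOTCH2, SEC16A-side NOTCH1, NOTCH4 and JAG1 peaks below the median lie between 4.39 and 4.74.

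Of the 13 RBPJ peaks, 4 (30.8%) had a high-affinity RBPJ site within 100 bp of the summit, against 8.51% of all RBPJ peaks and 1.56% of windows 2 kb to either side of them. The 4 include the NOTCH4-assigned peaks with folds of 4.74 and 5.68, which were nearest to GPSM3. The site at the peak with 4.74 lay outside its bounds. For L3MBTL3 high-affinity sites were found in 2 of the 4 peaks, against 10.1% of the list and 0.788% of its flanking windows. The site upstream of NRARP was counted in both lists. The core TGGGAA was within 100 bp in 5 of 13 RBPJ peaks (38.5%, against 29.5% of the list). A looser site, 1 of 12 words that read C or T, A or G, TG, any base but C, and GAA, was there in 5 of 13 (38.5%, against 15.4%). The 12 words include both high-affinity words, so the 4 RBPJ peaks above are counted again among the 5. Near the shared NOTCH1 peak the looser site was CATGTGAA, 92 bp from the RBPJ summit and outside the bounds of both peaks. No pair of looser sites facing each other with 15 to 17 bases between them was found in the 17 windows, an arrangement seen in 0.103% of all RBPJ and 0.225% of all L3MBTL3 windows. The AP-1 word TGACTCA, the TEAD word GGAATG and the E-box CACGTG, sought on both strands, were in none of the 13 RBPJ windows, against 11.2%, 13.7% and 6.87% of the RBPJ list. They were also in none of the 4 L3MBTL3 windows, against 2.03%, 2.70% and 2.93% of that list.

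The promoters themselves, within 500 bp of the canonical TSS, were also searched. The core was found at 1 of the 10, NOTCH2, against 56.7% of all promoters. A high-affinity site was likewise found at 1 of the 10, again NOTCH2, at 412 bp downstream. That count is near the 7.50% of all promoters. Absence of these letters from this window says nothing on binding elsewhere. Among all genes, 13.4% of promoters with a high-affinity site had an RBPJ summit within 1 kb, and 8.54% of those without. The CpG ratio (CpG dinucleotides observed over those the base composition predicts) in 1 kb around the canonical TSS was 0.779 to 1.00 at NOTCH1, NOTCH2, JAG1 and NRARP, which had a promoter peak in at least 1 of the lists. It was 0.702 to 0.918 at NOTCH3, JAG2, DLL1, DLL4 and DTX1, which had none, so these ranges overlapped. NOTCH4 had the lowest ratio, 0.140. The NRARP peak counted here as a promoter peak was the L3MBTL3 peak in its 3' UTR, 983 bp downstream of the TSS.

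The background against which these genes are read differed by chromosome. An RBPJ summit within 50 kb was found for 39.3% of the genes of chromosome 6 (NOTCH4 and DLL1), 37.9% of chromosome 20 (JAG1), 37.3% of chromosome 19 (NOTCH3), 27.9% of chromosome 14 (JAG2), 26.6% of chromosome 9 (NOTCH1 and NRARP), 20.1% of chromosome 1 (NOTCH2) and 16.3% of chromosome 12 (DTX1). For chromosome 15, which carries DLL4, it was 3.19%, the lowest of all 23 chromosomes, with 12 RBPJ peaks in all. NOTCH3 and DLL1 thus had no peak on chromosomes rich in RBPJ peaks, while DLL4 had none on the chromosome with the smallest share. For L3MBTL3 the shares ran from 0.464% to 6.35%, and the highest was that of chromosome 9, on which both genes with L3MBTL3 peaks lie.

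**Figure D4:**
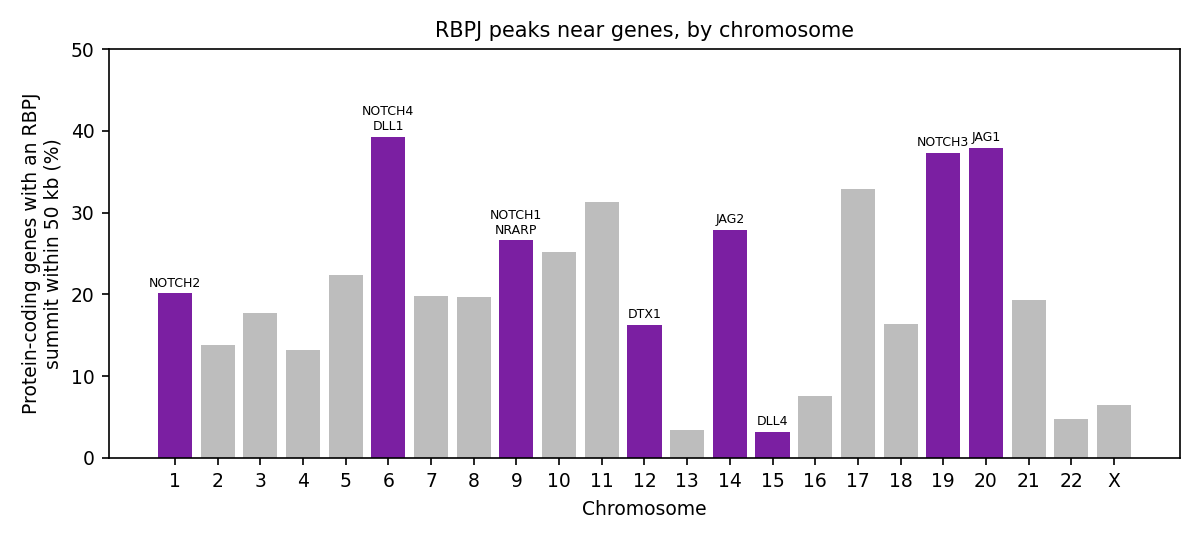
Percent of the protein-coding genes of each chromosome with an RBPJ summit within 50 kb of a TSS; purple bars carry 1 or more of the 10 genes, named above the bar. Chromosome 15 with DLL4 has the lowest bar, 3.19%, and chromosome 6 with NOTCH4 and DLL1 the highest, 39.3%.

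The other genes of the Notch pathway were taken from 5 lists with 75 genes. Of these, 34 (45.3%) had an RBPJ, 8 (10.7%) an L3MBTL3 and 4 (5.33%) a shared peak within 50 kb, beside 5, 2 and 2 of the 10 genes above. Among all protein-coding genes the shares were 21.8% for RBPJ, 2.89% for L3MBTL3 and 1.01% for shared peaks. Among 9 further ligand genes, EGFL7 alone had an RBPJ peak, and it was nearer to AGPAT2 (fold 4.08). DLK2, which encodes a Delta-like transmembrane protein, had 2 L3MBTL3 peaks, the one of higher fold 0.738 kb from its TSS at 5.46, and no RBPJ peak. Of 14 genes for receptor maturation and cleavage, 6 had RBPJ peaks. The highest fold, 6.11, was assigned to PSENEN, a gamma-secretase subunit gene, but lay nearest to KMT2B. One of the 14, RFNG, a Fringe glycosyltransferase gene, had L3MBTL3 peaks, the one of highest fold (6.37) nearest to RAC3. The RBPJ peak of highest fold assigned to RFNG lay nearest to FASN. Of 14 genes for ligand endocytosis, trafficking and turnover, 5 had RBPJ peaks, led by EPN2, an epsin gene (7.12), and none an L3MBTL3 peak. The RBPJ peaks of NUMBL and ITCH in that list lay nearest to COQ8B and DYNLRB1.

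Of the 75 other pathway genes, the 4 with a shared peak were among the nuclear components and the targets. Of 18 nuclear genes 9 had RBPJ peaks, led by the corepressor gene NCOR1 (8.01), and 2 had L3MBTL3 and shared peaks: RBPJ itself (RBPJ fold 7.57, L3MBTL3 fold 12.3) and SPEN, a corepressor gene (3.35 and 8.20). The RBPJ peak of highest fold lay nearest to SDC4 for RBPJL and to UQCRHL for SPEN. Of 20 target genes 13 had RBPJ peaks and 4 L3MBTL3 peaks, but some of these were nearer to other genes. By highest fold, the RBPJ peak lay nearest to ACOT7 for HES2, TNFRSF14 for HES5 and CNPY3 for PTCRA. The L3MBTL3 peak of HES5 lay nearest to PANK4. Among the targets, the genes with a shared peak were HES4 (15.6 and 6.67) and HEY2 (8.86 and 11.7), which encode transcriptional repressors. The RBPJ summits of these 4 shared peaks were 0.020 to 1.01 kb from a TSS and that of NOTCH1 0.233 kb, whereas that of NRARP was 13.9 kb away. These lists, too, were not tested.

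**Figure D5:**
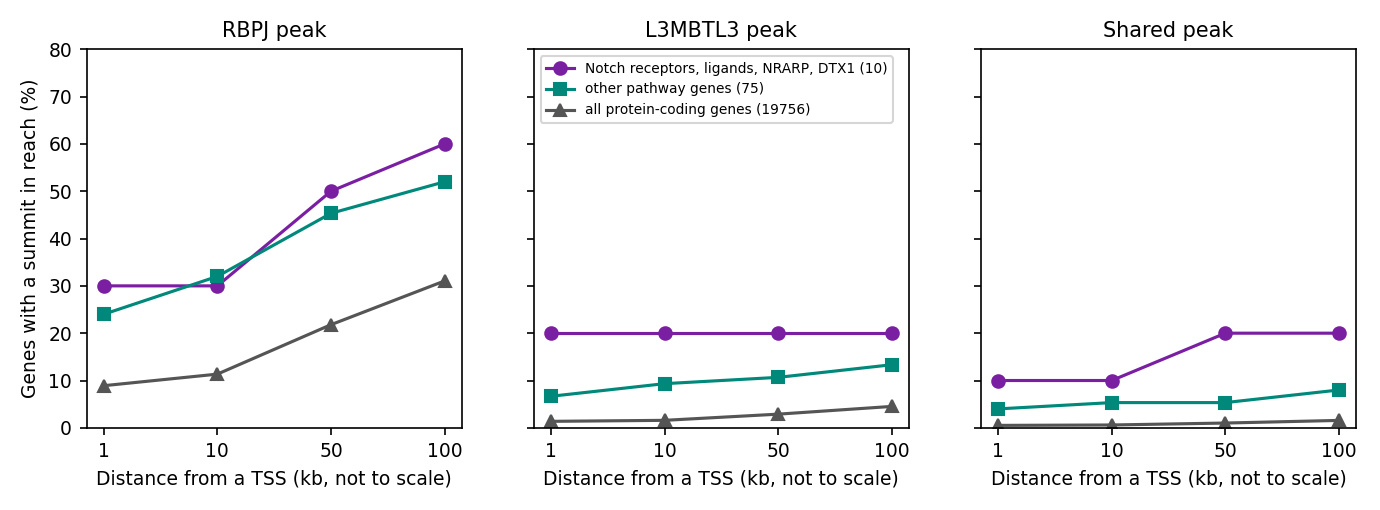
Percent of genes with a summit within 1, 10, 50 or 100 kb of a TSS, for the 10 Notch receptor, ligand, NRARP and DTX1 genes, 75 other pathway genes and all 19756 protein-coding genes, in panels for RBPJ, L3MBTL3 and shared RBPJ peaks. With 10 genes each step is 10%: the L3MBTL3 share is 20% at every distance, and the shared one is 10% up to 10 kb and 20% from 50 kb, where NRARP enters.

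The 50 kb limit fell in a gap of the distances to the nearest TSS. The farthest summits inside it were the SEC16A pair, at 29.7 and 29.4 kb from an internal NOTCH1 TSS. From the canonical NOTCH1 TSS this pair was 62.9 and 62.6 kb away, beyond the limit. With only the 5' end of each gene counted, NOTCH1 had 3 RBPJ peaks in place of 5. By the nearest TSS, the first RBPJ summit outside was 61.4 kb from NRARP, at the TUBB4B promoter (fold 4.37). The next was 70.0 kb from NOTCH4, at the PPT2 promoter (fold 5.46).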

How the data were processed

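ChIP-seq peak lists of 1 RBPJ and 1 L3MBTL3 library from MDA-MB-231 cells were used. Per the labels' protocols, runs of 50 cycles from 1 end gave 30 to 40 M aligned reads a library. Adaptors had been removed (Trimmomatic) and hg19 was the target of the aligner, BWA 0.7.15. The submitters' processing notes name MACS2 as peak caller. Its version, cutoff and control were not found in the labels. The deposited values are a fold enrichment (the ratio of the summit to local background), -log10 p and -log10 q, a summit position in bases (another column), and a score that equals 10 times the -log10 q, truncated. Folds were compared within a list.

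Coordinates are 1-based. Genes come from GENCODE 44 lifted to GRCh37 (19756 protein-coding genes) and sequence from GRCh37, whose chromosomes are those of hg19. A promoter is within 1 kb of a TSS. Peaks, words and distances were computed with Python 3.11.15 and pysam 0.24.0, and tested on simulated data. All 10 genes, every assigned peak and the nearest protein-coding genes are named, and of other pathway genes those with shared peaks or the highest fold of a list. Genes, lists and alternatives were chosen with earlier results of these data known. No test was run. Alternatives varied q, fold, distance, TSS, overlap and window, and repeated sequence, the last added after seeing the data.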

Additional observations from a re-analysis of the deposited data

How the results depend on the processing

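The 10 counts that answer the comparisons were recomputed 65 times under other settings, and 53 values stayed within 1.5 times the count given. With a -log10 q of at least 5 there were 6 RBPJ and 2 L3MBTL3 peaks near the 10 genes, and 4 peaks at promoters. At this cutoff 1 gene had an L3MBTL3 peak and 1 a shared peak (NRARP for both), and 17 other pathway genes had an RBPJ peak. The cutoff kept 640 of the 2926 RBPJ and 103 of the 444 L3MBTL3 peaks. Shares of all protein-coding genes were not computed at this cutoff, and those given above do not apply to it. With folds of at least the list median 7 RBPJ peaks were left. With a distance of 10 kb 3 genes had an RBPJ peak, through 5 RBPJ peaks, and 1 had a shared peak, NOTCH1. At that distance 11.3% of all protein-coding genes had an RBPJ peak and 0.602% a shared peak. Counting a peak only where the gene's TSS was the nearest left 7 RBPJ peaks, near 4 genes. The share of all protein-coding genes by that rule was not computed, and the share given for 50 kb does not apply to it. High-affinity sites within 50 bp of the summit were in 3 peaks, against 6 within 100 bp. Leaving out peaks in sequence with exact copies, chosen after seeing the data, left 4 genes with an RBPJ peak, without NOTCH2. Copies were sought only for the 17 peaks assigned to the 10 genes, so no share of all genes goes with that count. These settings use fewer peaks, a shorter distance or a narrower window by construction. With no read counts, depth per peak and the error of a fold are unknown. No paired analysis was possible because each antibody has 1 library.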
